A study of Mus musculus with 10 samples.

Results

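Transcribed units that carry only a provisional name were followed through SOX2 depletion in mouse embryonic stem cells (ESCs). A transcribed unit is a stretch of 1 strand that gave nascent RNA in the pooled data. The units described here are those assigned to a single gene whose symbol ends in Rik or is LOC followed by a number, with more than 10 fragments in at least 2 of the 10 libraries. There were 1206 of them, 773 Rik and 433 LOC, among 28459 units past that filter and 40779 units in all. Before the filter there were 1379, so 173 were left out as too sparse. At the edge of the filter, 18 units had a second-highest library of 11 fragments and were kept, with 35 to 90 fragments over all libraries, and 21 had a second-highest library of 10 and were left out, with 53 to 81.

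Rik symbols were given to mouse full-length cDNAs collected by the RIKEN sequencing effort, and LOC symbols are NCBI's placeholders for a locus with no published name. Many such loci are long non-coding RNAs, and others are protein-coding genes that simply had not been named. Long non-coding RNAs often start back to back with a protein-coding gene, run antisense to one, or lie alone between genes, and many are unstable, so that labelling RNA while it is being made shows them better than total RNA does.

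The cells were E14 ESCs of the SOX2-FKBP genotype, in which both Sox2 alleles carry a degradation tag, so that the small molecule dTAG-13 removes the SOX2 protein. SOX2 is a pioneer transcription factor that opens chromatin and maintains the pluripotent state. The NT group (not treated) received DMSO, and the other groups 500 nM dTAG-13 for 0.5, 1, 2 or 6 hours, written as hours post depletion (hpd), with 2 libraries in each of the 5 groups. Every culture, NT included, carried the tag, grew in serum-free medium with LIF and the MEK and GSK3 inhibitors, and was labelled with 2 mM 4SU for 10 min before its nascent RNA was sequenced by TT_chem_seq. The tagged cells came from homozygous clones chosen for their response to dTAG-13, and untagged cells given dTAG-13 were not analysed here, so that effects of the compound and of the loss of SOX2 cannot be told apart. No source says whether the 2 libraries of a group came from separate cultures, and p-values may then measure technical spread only.

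Libraries held 11131490 to 25854106 fragments in units, and the 1206 Rik and LOC units took between 2.56% and 2.70% of them. Over these units, replicate libraries correlated at 0.982 to 0.988 on the log scale (Pearson, across units, which are not independent), and the variance between them was 2.33 to 8.28 times that of counting noise alone (chi-square per degree of freedom). All 12 ESC markers examined had a tested unit, and their summed level was 4567 to 5132 CPM (counts scaled to a common library size) in NT and 3552 to 3701 CPM at 6 hpd. Of 16 markers of differentiated cells or feeders, 8 had a unit and 5 passed the filter, and their summed level stayed between 22.0 and 37.6 CPM over the 10 libraries. The unit assigned to Sox2, 43965 bp long, read 243 and 283 CPM in NT and 271 and 278 CPM at 6 hpd. How much of it comes from the gene itself was not examined, and it does not check the loss of the protein.

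The starts of 6 units that decreased at 0.5 or 1 hpd are shown, because transcription of these units fell early. They are 6 of the early decreases and not all of them, and 1700019D03Rik was first called at 1 hpd. Each runs from 250 bases before a start to 50 after it, 5′ to 3′ on the strand of transcription, in GRCm38 (the build that mm10 names), and capitals mark ACAATG or its reverse complement, the core that SOX proteins bind. The first 4 come from the promoter table of RefSeq and had a listed start within 1 kb of the unit's own start.
2500002B13Rik (chr8:57487713-57488012, plus strand): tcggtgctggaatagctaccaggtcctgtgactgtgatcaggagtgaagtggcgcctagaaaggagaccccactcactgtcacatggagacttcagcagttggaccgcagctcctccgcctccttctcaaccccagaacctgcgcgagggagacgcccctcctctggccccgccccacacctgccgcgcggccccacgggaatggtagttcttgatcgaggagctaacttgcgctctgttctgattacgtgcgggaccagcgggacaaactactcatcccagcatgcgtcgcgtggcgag
5730405O15Rik (chrX:13041765-13042064, plus strand): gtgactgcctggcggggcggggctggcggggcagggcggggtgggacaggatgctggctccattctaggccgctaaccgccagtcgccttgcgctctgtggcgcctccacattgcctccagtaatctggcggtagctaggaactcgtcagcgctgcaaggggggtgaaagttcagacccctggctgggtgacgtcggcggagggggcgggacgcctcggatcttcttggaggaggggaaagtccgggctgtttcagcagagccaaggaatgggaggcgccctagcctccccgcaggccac
1700030C10Rik (chr12:20815730-20816029, minus strand): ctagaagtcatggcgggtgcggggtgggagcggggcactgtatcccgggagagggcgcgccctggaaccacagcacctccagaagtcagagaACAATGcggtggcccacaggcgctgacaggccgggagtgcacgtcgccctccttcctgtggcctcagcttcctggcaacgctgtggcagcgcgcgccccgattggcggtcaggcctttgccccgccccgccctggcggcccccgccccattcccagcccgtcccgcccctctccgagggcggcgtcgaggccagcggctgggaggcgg
1700019D03Rik (chr1:52953565-52953864, minus strand): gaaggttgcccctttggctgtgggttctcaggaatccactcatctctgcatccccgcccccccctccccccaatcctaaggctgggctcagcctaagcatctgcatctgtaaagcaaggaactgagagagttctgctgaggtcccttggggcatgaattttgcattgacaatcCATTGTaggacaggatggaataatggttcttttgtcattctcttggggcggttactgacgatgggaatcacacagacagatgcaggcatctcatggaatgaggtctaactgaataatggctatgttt
The next 2 units begin far inside their annotated gene, so the window at the unit's own start was read from the genome. They were added after their values were seen.
6330410L21Rik (chr3:129757713-129758012, plus strand): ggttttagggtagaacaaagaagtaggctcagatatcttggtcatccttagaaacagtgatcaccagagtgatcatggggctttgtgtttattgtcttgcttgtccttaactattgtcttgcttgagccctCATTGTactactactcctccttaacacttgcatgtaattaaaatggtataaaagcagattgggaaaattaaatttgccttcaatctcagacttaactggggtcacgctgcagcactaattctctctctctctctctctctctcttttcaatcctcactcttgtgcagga
4930526L06Rik (chr19:11223712-11224011, plus strand): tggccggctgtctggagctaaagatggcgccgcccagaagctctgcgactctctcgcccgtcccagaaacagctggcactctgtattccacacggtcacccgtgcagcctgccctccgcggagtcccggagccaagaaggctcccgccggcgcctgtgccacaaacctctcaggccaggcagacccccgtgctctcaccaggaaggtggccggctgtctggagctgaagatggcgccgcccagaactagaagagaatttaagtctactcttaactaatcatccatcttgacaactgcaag

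The ACAATG core occurred once in the windows of 1700030C10Rik, 1700019D03Rik and 6330410L21Rik and in none of the other 3. The octamer ATGCAAAT, bound by OCT4, was in none of the 6. Both motifs were searched on both strands, and the end of one can overlap the start of the other. In windows of the same 300 bases at the start of each unit, ACAATG was found in 124 of 1206 Rik and LOC units (10.3%), against 9.86% of all 28459 units, and ATGCAAAT in 30 (2.49%) against 2.23%. Among the Rik and LOC units that decreased, ACAATG was found in 3 of 9 at 0.5 hpd, 7 of 47 at 1 hpd, 10 of 65 at 2 hpd and 15 of 99 at 6 hpd. Among those that increased it was in 0 of 4, 2 of 13, 3 of 38 and 5 of 66. ATGCAAAT was in 1 of 9, 4 of 47, 4 of 65 and 7 of 99 of those that decreased at the same times, and in 1 of 4, 2 of 13, 1 of 38 and 1 of 66 of those that increased. These are matches of letters in a window and not binding sites.

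The RefSeq table identified 1099 of the 1206 units, and 107 were not matched. It lists 722 as long non-coding RNA, 322 as protein-coding, 40 as pseudogenes, 14 as other RNAs and 1 otherwise. For 411 it gives another symbol than the deposited table, of which 253 are LOC units now listed under a Gm number. The provisional symbol thus covered genes of known product as well. Acsbg3, an acyl-CoA synthetase of the bubblegum family, stood as 1700061G19Rik.

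The unit did not always follow the annotated gene. It started within 1 kb of the annotated start for 755 units, over 1 kb upstream for 316 and over 1 kb downstream for 135, and it ran past the annotated end for 961. The median unit was 15.02 kb long, with a range from 0.141 to 595 kb. In NT the median level was 0.374 CPM per kb, with quartiles of 0.162 and 0.919, against 0.828 for the other 13773 single-gene units. The protein-coding members had a median of 0.706 CPM per kb and the long non-coding members 0.276. Rik units stood at 0.420 and LOC units at 0.291.

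At each time point the share of Rik and LOC units that decreased was close to the share of all units that did. Calls were made at an adjusted p under 0.05 (edgeR quasi-likelihood test, Benjamini-Hochberg over all 28459 units), and all 4 comparisons share the NT libraries. At 0.5 hpd 9 units decreased (0.746%, against 0.787% of all units) and 4 increased (0.332%, against 0.527%). At 1 hpd 47 decreased (3.90%, against 3.61%) and 13 increased (1.08%, against 2.15%). At 2 hpd 65 decreased (5.39%, against 5.57%) and 38 increased (3.15%, against 4.26%), and at 6 hpd 99 decreased (8.21%, against 9.20%) and 66 increased (5.47%, against 6.61%).

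**Figure D1:**
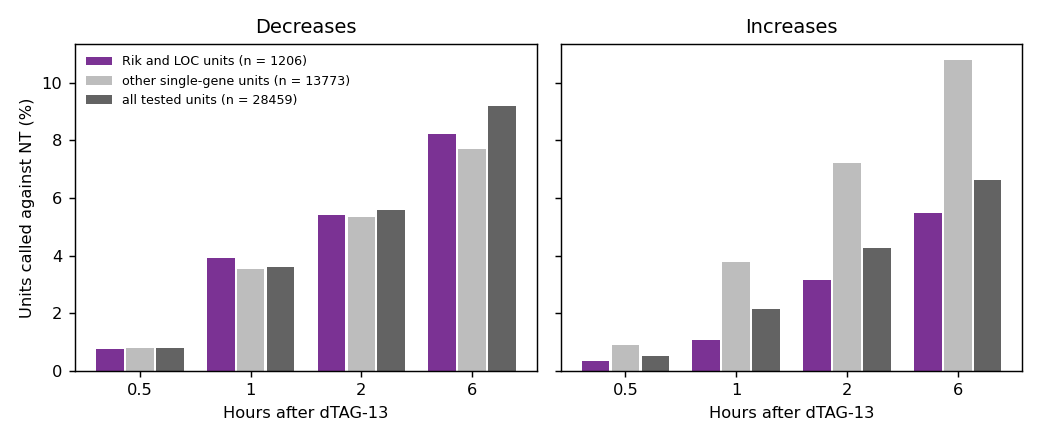
Percentage of units called against NT (y axis) at each time after dTAG-13 (x axis, hours), for decreases (left) and increases (right), in Rik and LOC units, in the other single-gene units and in all tested units. At 6 hpd 8.21% of the Rik and LOC units decreased, against 7.69% of the other single-gene units and 9.20% of all units, and 5.47% increased, against 10.8% and 6.61%.

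Every unit called in these comparisons had both depleted libraries outside the range of the NT libraries in CPM. The share over all called units was not counted, so this is no result about the Rik and LOC units. Among the calls at 6 hpd the decreases were the larger changes. Of the 99 decreases at 6 hpd, 65 exceeded 2-fold, with a median log2 fold change (log2FC) of -1.24, and of the 66 increases 21 did, with a median of 0.84. The same sizes were not counted over all called units, so they cannot be called particular to the Rik and LOC units. Over all 1206 units the median log2FC was -0.04, -0.08, -0.07 and -0.01 at the 4 time points in order, and over all tested units -0.02, -0.04, -0.04 and -0.04. A joint test of the 4 time points called 132 Rik and LOC units, 10.9% against 12.3% of all units. Scaling by total counts alone lowered the median of all units at 2 hpd from -0.04 to -0.16, and calls there became 88 decreases and 24 increases, with 117 and 47 at 6 hpd.

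The number of calls depended on single libraries at every time point. At 0.5 hpd the decreases numbered 2 when NT replicate 2 was left out, and 4 and 3 when the first or the second 0.5 hpd library was. The increases numbered 1 with either NT library or the second 0.5 hpd library left out. At 1 hpd the fewest were 2 increases and 20 decreases, both without 1 hpd replicate 1. At 2 hpd they were 13 increases without NT replicate 2 and 33 decreases without 2 hpd replicate 1, and at 6 hpd 33 increases and 57 decreases, both without NT replicate 2. Leaving out 2 hpd replicate 2 raised the increases at 2 hpd to 59.

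**Figure D2:**
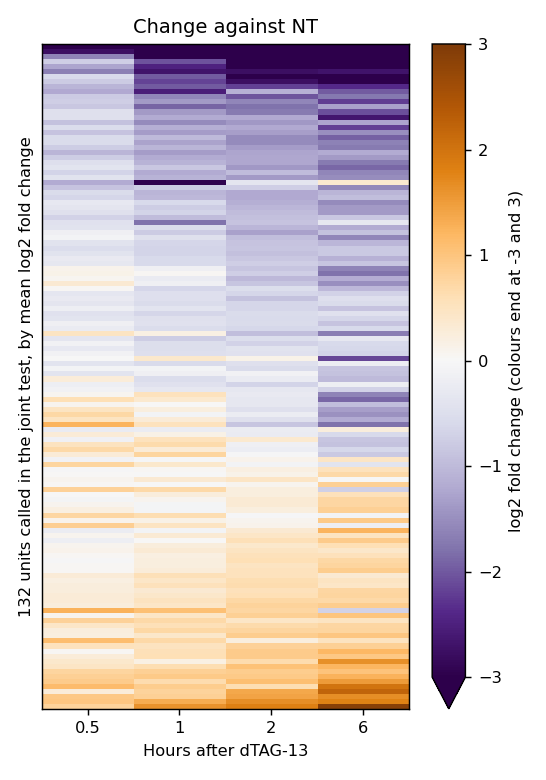
Log2 fold change against NT (colour, from -3 in purple to 3 in orange, with lower values at the end colour) of the 132 Rik and LOC units called in the joint test (rows, ordered by their mean change) at 0.5, 1, 2 and 6 hpd (columns). Of these, 79 had a mean change below 0, and the strongest colours are among the decreases.

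The largest fitted decrease at 0.5 hpd was that of 6330410L21Rik, a long non-coding RNA whose unit (chr3:129757963-129764616, plus strand) began 4206 bp inside the annotated gene and lay 32646 bp from the nearest gene unit, Egf. It had 48 and 105 fragments in the NT libraries, then 4 and 2 after 0.5 h, 1 and 1 after 1 h, 0 and 1 after 2 h and 1 and 0 after 6 h, so that it passed the count filter through the NT libraries alone. The NT libraries were unlike each other, at 3.23 and 7.63 CPM, but all 8 depleted libraries lay at 0.171 CPM or below. Because only units that were higher in NT could enter in this way, no fold or p is given. Egf, which encodes epidermal growth factor, had a log2FC of 0.05 ± 0.18 (adjusted p = 0.98) at 0.5 hpd. Distances to the nearest gene unit, here and below, count only single-gene units past the count filter that are not Rik or LOC.

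Among the more highly transcribed units described here, 2500002B13Rik fell furthest. Its unit (chr8:57488044-57511831, plus strand) began 17770 bp before the main annotated start and 81 bp from a further start that RefSeq lists. It stood at 74.1 and 57.99 CPM in the NT libraries, then 22.7 and 18.6 after 0.5 h, 10.3 and 10.4 after 1 h, 10.7 and 8.77 after 2 h and 10.3 and 10.1 after 6 h. The drop was larger than the gap between replicates from the first time point on, and the level was flat from 1 hpd. The log2FC was -1.66 ± 0.14 (adjusted p = 4.3e-05) at 0.5 hpd and -2.67 ± 0.15 (adjusted p = 1.3e-07) at 1 hpd.

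This unit overlapped 2 genes on the other strand. Sap30, a subunit of the SIN3 histone deacetylase complex, shared 12.7% of its length and had a log2FC of -1.21 ± 0.21 (adjusted p = 0.0078) at 0.5 hpd and -0.99 ± 0.20 (adjusted p = 0.004) at 6 hpd. Galnt7, a transferase of O-linked glycosylation, shared 13.6% and had -0.02 ± 0.12 (adjusted p = 0.98) at 0.5 hpd and 0.52 ± 0.12 (adjusted p = 0.007) at 6 hpd. So Sap30 decreased with 2500002B13Rik, and Galnt7 was higher at 6 hpd.

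Several further units were called as lower at 0.5 hpd and stayed below NT to 6 hpd. 5730405O15Rik, a long non-coding RNA (chrX:13041867-13071743, plus strand) that ended 11 bp before the unit of the deubiquitinase Usp9x, stood at 13.5 and 16.4 CPM in the NT libraries, then 6.63 and 7.78 after 0.5 h, 5.39 and 6.38 after 1 h, 5.36 and 7.25 after 2 h and 6.74 and 6.52 after 6 h. All 8 depleted libraries lay below both NT libraries, with a log2FC of -1.07 ± 0.18 (adjusted p = 0.0078) at 0.5 hpd, whereas Usp9x had -0.19 ± 0.14 (adjusted p = 0.79). Leaving out NT replicate 2 (adjusted p = 0.13) or the first 0.5 hpd library (adjusted p = 0.11) removed this call.

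1700030C10Rik (chr12:20794025-20815750, minus strand), a more highly transcribed long non-coding RNA, stood at 91.9 and 97.8 CPM in the NT libraries, then 65.6 and 66.02 after 0.5 h, 58.3 and 61.1 after 1 h, 49.1 and 55.1 after 2 h and 52.3 and 56.1 after 6 h. Its change was smaller, -0.53 ± 0.10 (adjusted p = 0.015) at 0.5 hpd and -0.87 ± 0.10 (adjusted p = 5.7e-05) at 2 hpd. The 0.5 hpd call was lost when any of the 4 libraries compared was left out, with adjusted p from 0.056 without NT replicate 1 to 0.18 without NT replicate 2 (0.11 and 0.10 without 0.5 hpd replicates 1 and 2).

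LOC108168395 lay on chromosome 18 and is listed by RefSeq as the protein-coding Gm45871. It stood at 69.2 and 69.3 CPM in the NT libraries, then 45.7 and 40.1 after 0.5 h, 36.3 and 34.1 after 1 h, 39.9 and 33.1 after 2 h and 39.2 and 38.3 after 6 h, and no depleted library reached the NT level. The log2FC was -0.69 ± 0.11 (adjusted p = 0.0066) at 0.5 hpd and -0.84 ± 0.11 (adjusted p = 0.00014) at 6 hpd. The first of these had an adjusted p of 0.070 when NT replicate 2 was left out and of 0.071 when the second 0.5 hpd library was.

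LOC105243127, which RefSeq did not match, stood at 37.2 and 42.6 CPM in the NT libraries, then 23.9 and 27.1 after 0.5 h, 19.6 and 19.99 after 1 h, 16.3 and 18.4 after 2 h and 22.1 and 19.5 after 6 h. Its log2FC was -0.65 ± 0.12 (adjusted p = 0.015) after 0.5 h and lowest after 2 h, at -1.20 ± 0.13 (adjusted p = 2e-05). The 0.5 hpd call was lost without NT replicate 2 (adjusted p = 0.19) and without either 0.5 hpd library (0.18 and 0.057).

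Other units were lower still at later times. 1700019D03Rik (chr1:52895492-52953674, minus strand), protein-coding in RefSeq, stood at 112 and 116 CPM in the NT libraries, then 92.2 and 72.4 after 0.5 h, 45.2 and 42.9 after 1 h, 36.1 and 33.7 after 2 h and 26.7 and 27.8 after 6 h. Each later group lay below the one before it. The log2FC went from -0.47 ± 0.11 (adjusted p = 0.063) to -2.07 ± 0.12 (adjusted p = 6.3e-08), and the decrease between 1 and 6 hpd was itself past the threshold, at -0.69 ± 0.12 (adjusted p = 0.0035). Hibch, an enzyme of valine breakdown whose unit covers 54.0% of 1700019D03Rik on the other strand, had 0.05 ± 0.15 (adjusted p = 0.87) at 6 hpd.

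4930526L06Rik (chr19:11223962-11317242, plus strand) began 27146 bp inside its annotated gene and had no other gene unit within 274665 bp. It stood at 18.4 and 22.3 CPM in the NT libraries, then 11.9 and 12.5 after 0.5 h, 7.84 and 7.97 after 1 h, 5.81 and 7.71 after 2 h and 4.64 and 4.13 after 6 h. The log2FC was -0.74 ± 0.16 (adjusted p = 0.032) at 0.5 hpd and -2.21 ± 0.18 (adjusted p = 1e-06) at 6 hpd. The first of these was lost under total-count scaling (adjusted p = 0.065), without NT replicate 1 or 2 (0.054 and 0.31), without 0.5 hpd replicate 1 or 2 (0.22 and 0.15), without either 1 hpd library (0.056 and 0.055) and without 6 hpd replicate 1 (0.052). LOC102631676, now listed as Gm6360 (chr8:78063799-78140772, plus strand), was as isolated, 250224 bp from its nearest gene unit. It stood at 132 and 147 CPM in the NT libraries, then 96.9 and 94.2 after 0.5 h, 53.3 and 61.04 after 1 h, 43.6 and 52.5 after 2 h and 37.4 and 52.9 after 6 h, a log2FC of -1.28 ± 0.15 (adjusted p = 8.3e-05) at 1 hpd.

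**Figure D3:**
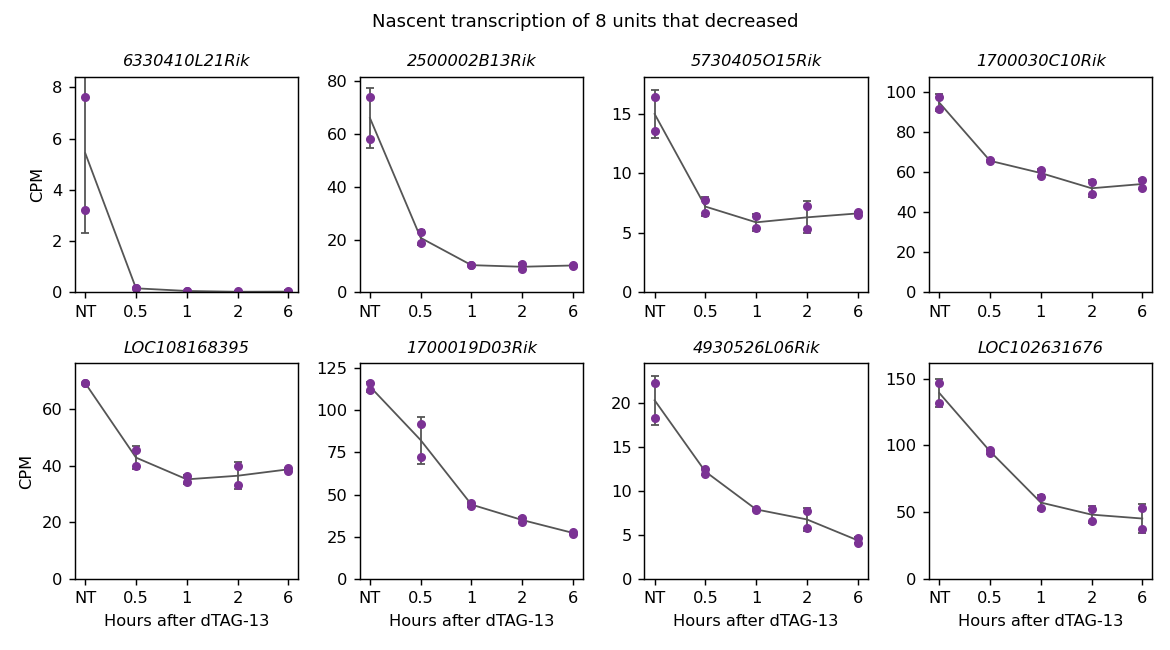
Normalised level (y axis, CPM from 0) of 8 Rik and LOC units that decreased, in NT and at 0.5, 1, 2 and 6 h after dTAG-13 (x axis, evenly spaced). Points are libraries, lines join group means and bars are SD (n = 2). 6330410L21Rik was near 0 from 0.5 hpd, 2500002B13Rik levelled off from 1 hpd, and 1700019D03Rik was lower in each later group.

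Decreases were also seen in units that lay across or behind another gene. 1700061G19Rik (Acsbg3), which lies wholly within Mllt1 on the other strand, stood at 22.3 and 18.4 CPM in the NT libraries, then 14.1 and 15.1 after 0.5 h, 10.2 and 8.88 after 1 h, 8.39 and 8.94 after 2 h and 6.32 and 6.23 after 6 h. Its log2FC was -1.10 ± 0.15 (adjusted p = 0.0003) at 1 hpd and -1.70 ± 0.15 (adjusted p = 3.5e-06) at 6 hpd. Mllt1, which encodes a subunit of the super elongation complex, had -0.35 ± 0.10 (adjusted p = 0.022) at 6 hpd, a smaller decrease.

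LOC105244102 (Gm13421 in RefSeq) started 11 bp behind Wdr5, a subunit of the histone H3K4 methyltransferase complexes, on the same strand. It stood at 31.1 and 47.5 CPM in the NT libraries, then 29.1 and 30.8 after 0.5 h, 21.2 and 23.1 after 1 h, 14.4 and 15.4 after 2 h and 11.1 and 10.2 after 6 h. Both units decreased, with log2FC values at 6 hpd of -1.88 ± 0.17 (adjusted p = 3.6e-06) for LOC105244102 and -1.18 ± 0.11 (adjusted p = 5e-06) for Wdr5. The methods cut a continuous run of transcription at an annotated start inside it, so RNA read through from Wdr5 and RNA begun at the LOC start cannot be told apart.

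LOC108169124 (Gm20548 in RefSeq), wholly inside Wdfy3 on the other strand, stood at 7.13 and 8.50 CPM in the NT libraries, then 3.43 and 4.11 after 0.5 h, 1.69 and 2.22 after 1 h, 1.26 and 2.16 after 2 h and 1.48 and 1.51 after 6 h, a log2FC of -2.38 ± 0.27 (adjusted p = 2.8e-05) at 6 hpd. Wdfy3, a scaffold for selective autophagy, had 0.08 ± 0.11 (adjusted p = 0.66).

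The largest fitted decreases besides 6330410L21Rik came from sparse long non-coding units, picked here by that size among those called in the joint test. 1700020G17Rik had 14 and 19 fragments in the NT libraries, then 2 and 4 after 0.5 h, 1 and 1 after 1 h, 0 and 1 after 2 h and 0 and 0 after 6 h. Both it and 4930533P14Rik passed the count filter through the NT libraries alone, the latter at its edge. Only units that were higher in NT could enter in this way, so no fold or p is given. 4930533P14Rik had 11 and 11 fragments in NT and none at 1 hpd, with 2 and 1 fragments at 2 hpd.

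LOC108167968 (Gm46325 in RefSeq) declined in steps, with 45 and 72 fragments in the NT libraries, then 54 and 35 after 0.5 h, 11 and 22 after 1 h, 2 and 9 after 2 h and 0 and 2 after 6 h. The fall between 1 and 6 hpd was past the threshold, at a log2FC of -3.80 ± 0.92 (adjusted p = 0.026), but not without 1 hpd replicate 2 (adjusted p = 0.20) or either 6 hpd library (0.18 and 0.075). 1700097N02Rik fell from 125 and 163 fragments in NT to 4 and 19 at 6 hpd, a log2FC of -3.79 ± 0.40 (adjusted p = 1.5e-05). E430016F16Rik, with 15 and 16 fragments in NT, had 1 and 2 at 6 hpd.

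Increases were fewer and began as early. LOC108167375 (chr17:8283967-8308612, plus strand), which RefSeq did not match, stood at 44.4 and 42.1 CPM in the NT libraries, then 78.6 and 71.7 after 0.5 h, 74.6 and 65.9 after 1 h, 63.95 and 52.5 after 2 h and 64.9 and 55.8 after 6 h. Both 0.5 hpd libraries lay above every NT library, and the log2FC was 0.80 ± 0.12 (adjusted p = 0.0042) at 0.5 hpd and 0.48 ± 0.12 (adjusted p = 0.016) at 6 hpd. The unit began 11 bp behind that of Mpc1, a mitochondrial pyruvate carrier, whose own unit stood at only 0.285 CPM in NT. Without NT replicate 2 the 0.5 hpd call was lost (adjusted p = 0.084), without 1 hpd replicate 1 that at 1 hpd was (adjusted p = 0.056), and without NT replicate 2 or 6 hpd replicate 1 that at 6 hpd was (0.11 and 0.13).

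D130040H23Rik (chr8:69271064-69326950, plus strand), protein-coding and 25376 bp from its nearest gene unit, stood at 121 and 120.5 CPM in the NT libraries, then 165 and 163 after 0.5 h, 171 and 189 after 1 h, 194 and 193 after 2 h and 186 and 215 after 6 h. All depleted libraries were above both NT libraries, with a log2FC of 0.44 ± 0.10 (adjusted p = 0.052) at 0.5 hpd and 0.73 ± 0.10 (adjusted p = 0.00021) at 6 hpd. LOC108168079 (Gm28707 in RefSeq, chr13:42049371-42084698, plus strand) stood at 27.9 and 24.2 CPM in the NT libraries, then 38.7 and 32.5 after 0.5 h, 42.8 and 37.8 after 1 h, 59.1 and 47.9 after 2 h and 57.5 and 63.4 after 6 h, a log2FC of 1.21 ± 0.14 (adjusted p = 2.3e-05) at 6 hpd. Its nearest gene unit, Gm32778, 44894 bp away on the same strand, had 1.15 ± 0.14 (adjusted p = 6.8e-05).

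2310030G06Rik (chr9:50727995-50746537, minus strand), annotated as the mouse counterpart of an uncharacterised human protein, stood at 14.1 and 11.9 CPM in the NT libraries, then 15.02 and 15.4 after 0.5 h, 16.7 and 17.9 after 1 h, 23.1 and 24.9 after 2 h and 24.9 and 26.4 after 6 h. Its increase reached 0.88 ± 0.13 (adjusted p = 0.00038) at 2 hpd, and Dixdc1, a Wnt pathway protein whose unit lay 11 bp away on the same strand, had 0.41 ± 0.10 (adjusted p = 0.018) at that time and 0.64 ± 0.10 (adjusted p = 0.00055) at 6 hpd. Hspb2, a small heat shock protein whose unit ended 1340 bp before it on the same strand, stood at 0.0727 CPM in NT. At that level it can have passed the count filter only through depleted libraries, so no fold or p is given for it. 2510009E07Rik, also protein-coding, stood at 40.4 and 37.7 CPM in the NT libraries, then 47.7 and 47.7 after 0.5 h, 50.4 and 53.2 after 1 h, 58.4 and 59.8 after 2 h and 65.5 and 67.1 after 6 h, with 0.76 ± 0.10 (adjusted p = 8.5e-05) at 6 hpd. Vps8, an endosomal tethering subunit that it overlaps on the other strand, had 0.16 ± 0.10 (adjusted p = 0.33).

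1110002J07Rik, a long non-coding RNA, stood at 7.67 and 8.21 CPM in the NT libraries, then 11.01 and 11.9 after 0.5 h, 11.1 and 11.3 after 1 h, 13.2 and 14.4 after 2 h and 14.4 and 14.03 after 6 h. It changed by 0.80 ± 0.14 (adjusted p = 0.0017) at 2 hpd, and Gm31416, whose unit lay 11 bp away on the same strand, by 0.89 ± 0.12 (adjusted p = 0.00015). LOC108168843, wholly inside the unit of the zinc finger gene Zfp971 on the other strand, stood at 13.2 and 14.97 CPM in the NT libraries, then 17.3 and 15.7 after 0.5 h, 22.6 and 23.2 after 1 h, 24.9 and 22.6 after 2 h and 24.7 and 23.5 after 6 h, a log2FC of 0.76 ± 0.13 (adjusted p = 0.0011) at 2 hpd, where Zfp971 had 0.06 ± 0.11 (adjusted p = 0.78). 2900026A02Rik stood at 67.8 and 54.1 CPM in the NT libraries, then 70.8 and 78.3 after 0.5 h, 96.5 and 86.2 after 1 h, 90.8 and 84.1 after 2 h and 80.9 and 73.1 after 6 h and was past the threshold at 1 hpd (0.58 ± 0.12 (adjusted p = 0.0089)), a call that was lost without NT replicate 2 (adjusted p = 0.11) or 1 hpd replicate 1 (adjusted p = 0.13).

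A few units were called as higher early and not at 6 hpd. 2310015A10Rik, a long non-coding RNA 11 bp from the unit of Zfp36l1, an RNA-decay factor, stood at 9.15 and 10.5 CPM in the NT libraries, then 16.9 and 18.6 after 0.5 h, 12.9 and 14.6 after 1 h, 10.2 and 10.9 after 2 h and 8.50 and 8.79 after 6 h. It increased at 0.5 hpd (0.85 ± 0.14 (adjusted p = 0.0074)), stood at -0.18 ± 0.15 (adjusted p = 0.45) at 6 hpd, and was lower at 6 than at 1 hpd, with a log2FC of -0.67 ± 0.15 (adjusted p = 0.014). Zfp36l1 had 0.00 ± 0.10 (adjusted p = 1) at 0.5 hpd and -0.70 ± 0.11 (adjusted p = 0.00036) at 6 hpd. The 0.5 hpd call was lost without NT replicate 1 (adjusted p = 0.073) and without 0.5 hpd replicate 2 (adjusted p = 0.065), and that between 1 and 6 hpd without 1 hpd replicate 2 (0.19) or either 6 hpd library (0.11 and 0.082).

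2810030D12Rik and the overlapping Gm34505 on the other strand, which covers 82.7% of it, rose together at 0.5 hpd. 2810030D12Rik stood at 6.73 and 5.60 CPM in the NT libraries, then 12.5 and 14.5 after 0.5 h, 8.53 and 11.4 after 1 h, 6.17 and 8.18 after 2 h and 9.83 and 7.63 after 6 h, with 1.12 ± 0.20 (adjusted p = 0.012) at 0.5 hpd, and Gm34505 had 0.81 ± 0.12 (adjusted p = 0.0027). The call of 2810030D12Rik was lost without NT replicate 1 (adjusted p = 0.061), NT replicate 2 (0.19) or 0.5 hpd replicate 2 (0.080).

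**Figure D4:**
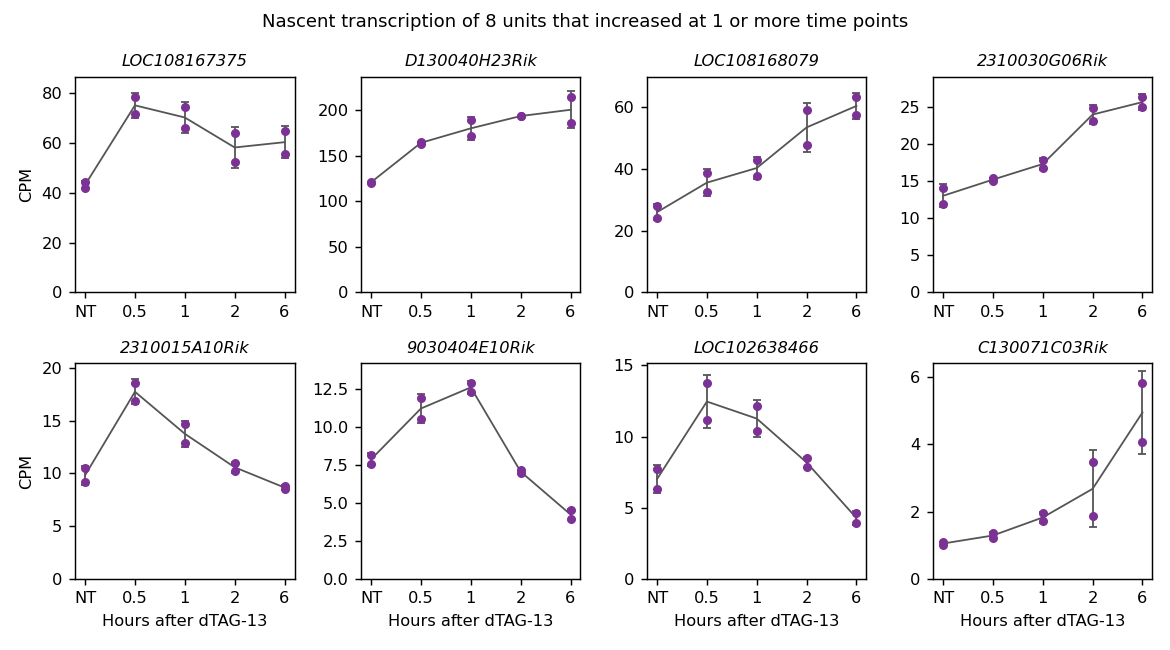
Normalised level (y axis, CPM from 0) of 8 Rik and LOC units that increased at 1 or more time points, in NT and at 0.5, 1, 2 and 6 h after dTAG-13 (x axis, evenly spaced). Points are libraries, lines join group means and bars are SD (n = 2). D130040H23Rik, LOC108168079 and 2310030G06Rik were highest at 6 hpd, and 2310015A10Rik, 9030404E10Rik and LOC102638466 were above NT early and at or below it at 6 hpd.

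The comparison of 6 with 1 hpd uses no NT library and asks which units changed between an early and a late time. It called 24 Rik and LOC units as higher at 6 hpd (1.99%, against 1.96% of all units) and 31 as lower (2.57%, against 2.92%). 9030404E10Rik (chr16:29995105-30039461, minus strand), a long non-coding RNA, turned from above to below NT. It stood at 8.14 and 7.56 CPM in the NT libraries, then 10.5 and 11.9 after 0.5 h, 12.3 and 12.9 after 1 h, 7.13 and 6.95 after 2 h and 4.50 and 3.96 after 6 h. The log2FC was 0.68 ± 0.15 (adjusted p = 0.015) at 1 hpd and -0.90 ± 0.17 (adjusted p = 0.0023) at 6 hpd against NT, and -1.58 ± 0.16 (adjusted p = 5.2e-05) for 6 against 1 hpd. The increase at 1 hpd was not called under total-count scaling (adjusted p = 0.064), nor without NT replicate 2 (0.099), 1 hpd replicate 1 (0.088) or 1 hpd replicate 2 (0.13).

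LOC102638466 (Gm10522 in RefSeq) was likewise higher early and lower late, at 6.33 and 7.70 CPM in the NT libraries, then 11.2 and 13.8 after 0.5 h, 12.2 and 10.4 after 1 h, 7.89 and 8.47 after 2 h and 4.64 and 3.90 after 6 h. It changed by 0.82 ± 0.18 (adjusted p = 0.035) at 0.5 hpd and by -1.40 ± 0.19 (adjusted p = 0.00042) between 1 and 6 hpd. Fcgr2b, an inhibitory IgG receptor that overlaps 40.4% of it on the other strand, had 0.67 ± 0.17 (adjusted p = 0.026) at 1 hpd and -0.84 ± 0.18 (adjusted p = 0.0062) at 6 hpd. The 0.5 hpd call was lost under total-count scaling (adjusted p = 0.085) and without either NT library (0.22 and 0.11), either 0.5 hpd library (0.054 and 0.24) or either 1 hpd library (0.052 and 0.051).

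LOC102632231 (Gm2245 in RefSeq) stood at 23.6 and 28.8 CPM in the NT libraries, then 37.9 and 35.1 after 0.5 h, 32.1 and 32.00 after 1 h, 19.2 and 18.9 after 2 h and 11.3 and 11.7 after 6 h. It was lower at 6 than at 1 hpd, with a log2FC of -1.48 ± 0.13 (adjusted p = 1.3e-05). LOC102633000, which RefSeq now names 2310043M15Rik, stood at 11.98 and 12.5 CPM in the NT libraries, then 12.8 and 13.4 after 0.5 h, 10.7 and 11.4 after 1 h, 6.52 and 7.07 after 2 h and 4.00 and 4.08 after 6 h. Its log2FC against NT was -0.14 ± 0.14 (adjusted p = 0.65) at 1 hpd, and that of 6 against 1 hpd was -1.45 ± 0.16 (adjusted p = 7.6e-05). Dopey2, whose unit contains it on the other strand, had 0.56 ± 0.09 (adjusted p = 0.00084) at 6 hpd against NT, the opposite direction.

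Of the units named as higher at 6 than at 1 hpd, C130071C03Rik and LOC105245978 were low in NT. C130071C03Rik (chr13:83727007-83743109, plus strand), a long non-coding RNA with no other gene unit within 479168 bp, had 15 and 15 fragments in the NT libraries, then 31 and 16 after 0.5 h, 31 and 30 after 1 h, 69 and 32 after 2 h and 83 and 70 after 6 h. The 6 hpd libraries lay above all others in CPM, at 5.83 and 4.08 against 1.01 and 1.09 in NT. Its log2FC was 2.22 ± 0.34 (adjusted p = 0.00038) against NT and 1.43 ± 0.30 (adjusted p = 0.012) against 1 hpd.

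LOC105245978 (Gm19859 in RefSeq) had 33 and 37 fragments in the NT libraries, then 73 and 43 after 0.5 h, 39 and 54 after 1 h, 90 and 52 after 2 h and 110 and 130 after 6 h, with 1.46 ± 0.24 (adjusted p = 0.002) for 6 against 1 hpd. E030011O05Rik, far more abundant, stood at 107 and 98.6 CPM in the NT libraries, then 99.05 and 102 after 0.5 h, 104 and 106 after 1 h, 119 and 115 after 2 h and 146 and 151 after 6 h and changed by 0.50 ± 0.10 (adjusted p = 0.0063). 2310030G06Rik, described above, was higher at 6 than at 1 hpd by 0.57 ± 0.12 (adjusted p = 0.015).

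This comparison rested on every one of its 4 libraries. The 24 higher units numbered 1 and 2 without 1 hpd replicates 1 and 2 and 4 and 6 without 6 hpd replicates 1 and 2. The 31 lower units numbered 17 and 13, and 12 and 11, in the same order. Of the 4 named as higher, the call of E030011O05Rik had an adjusted p of 0.087 and 0.088 without the 1 hpd replicates and 0.062 without 6 hpd replicate 2. That of C130071C03Rik had 0.067 and 0.13 without the 1 hpd replicates and 0.13 without 6 hpd replicate 1. That of 2310030G06Rik lay between 0.071 and 0.14 without any of the 4.

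The 6 units with the highest NT level per kb were called at no time point. LOC105245440 (Gm19951 in RefSeq), a unit of 0.621 kb, stood at 352 CPM per kb in NT. In CPM it stood at 216 and 222 CPM in the NT libraries, then 139.9 and 220.3 after 0.5 h, 187 and 181 after 1 h, 161 and 202 after 2 h and 276 and 186 after 6 h, and the libraries of 0.5 and 6 hpd differed within their group as much as the groups did. LOC108167803 (Gm46219) and LOC108167755 (Gm46178), of 0.626 and 0.249 kb, stood at 35.8 and 23.4 CPM per kb.

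The longer ones were 1110038B12Rik at 23.7 CPM per kb, 2410006H16Rik at 21.6 and 5430416N02Rik at 18.9, all long non-coding RNAs. 1110038B12Rik stood at 322 and 318 CPM in the NT libraries, then 288 and 337 after 0.5 h, 303 and 302 after 1 h, 282 and 314 after 2 h and 273 and 255 after 6 h. The log2FC values of the 3 long ones at 6 hpd were -0.28 ± 0.11 (adjusted p = 0.095), -0.34 ± 0.14 (adjusted p = 0.13) and -0.27 ± 0.10 (adjusted p = 0.093). Lrrc75a, whose unit contains 2410006H16Rik on the other strand, had 0.76 ± 0.11 (adjusted p = 0.00026) at 6 hpd.

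By position, 325 Rik and LOC units started head to head with another single-gene unit whose symbol is neither Rik nor LOC (Gm-numbered genes included), which means within 2 kb on opposite strands and running apart. The count allows starts that overlap, a definition adopted after position counts were seen, and would be 135 without them. A further 331 ran antisense to one, 109 began within 5 kb behind one on the same strand and 441 fell in none. These 441 are called alone here, but they include units that end just before a gene unit on the same strand. Such units are 5730405O15Rik, 2310015A10Rik and 1110002J07Rik, each 11 bp from it. At 6 hpd 9.20% of all units decreased and 6.61% increased. Of the 441 alone, 50 decreased and 34 increased at 6 hpd (11.3% and 7.71%). Of the 331 antisense units 29 and 10 did (8.76% and 3.02%), of the 109 downstream units 10 and 10 (9.17% and 7.34%), and of the 325 head to head 10 and 14 (3.08% and 4.31%). At 0.5 hpd no head to head unit was called, and 6 units of the alone class decreased (1.36%, against 0.787% of all units), among only 9 decreases in all. The 6 include 5730405O15Rik, which ended 11 bp before the unit of Usp9x. The classes also differed in depth, since the median NT level was 3.81 CPM head to head, 7.06 antisense, 12.1 downstream and 4.24 alone, and its part in these shares was not tested.

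Across the head to head pairs, the log2FC values of the 2 units correlated at 0.39, 0.40, 0.43 and 0.55 (Pearson, 325 pairs) at the 4 time points in order, with Spearman's rho of 0.27, 0.30, 0.34 and 0.46. These are descriptions over pairs whose values come from the same libraries. Downstream pairs gave 0.48, 0.58, 0.53 and 0.63 (109 pairs), antisense pairs 0.39, 0.31, 0.29 and 0.25 (331 pairs), and units alone with their nearest gene 0.17, 0.24, 0.25 and 0.25 (441 pairs). Of the downstream units 79 of 109 began 11 bp after the unit before them, and the methods split some continuous runs at an annotated start, so read-through and new starts cannot be told apart there. The downstream pair with the lowest partner was D630039A03Rik with Gm42292, at log2FC values of -1.98 and -4.15 at 6 hpd.

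Both units of a pair were called at 6 hpd in 14 head to head pairs, all in the same direction, in 8 downstream pairs, likewise, and in 16 antisense pairs, of which 9 changed in the same direction and 7 in opposite ones. In the alone class, both the unit and its nearest gene were called in 23 of 441 pairs, 22 of them in the same direction. These include 1110002J07Rik with Gm31416, 11 bp apart on the same strand, where read-through and new starts cannot be told apart either. The Rik or LOC unit was called without its partner in 10 head to head, 10 downstream and 23 antisense pairs, and the partner without the Rik or LOC unit in 57, 14 and 60. Pairs of neighbouring units without a Rik or LOC unit were not counted, so these numbers have no share to be set against.

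**Figure D5:**
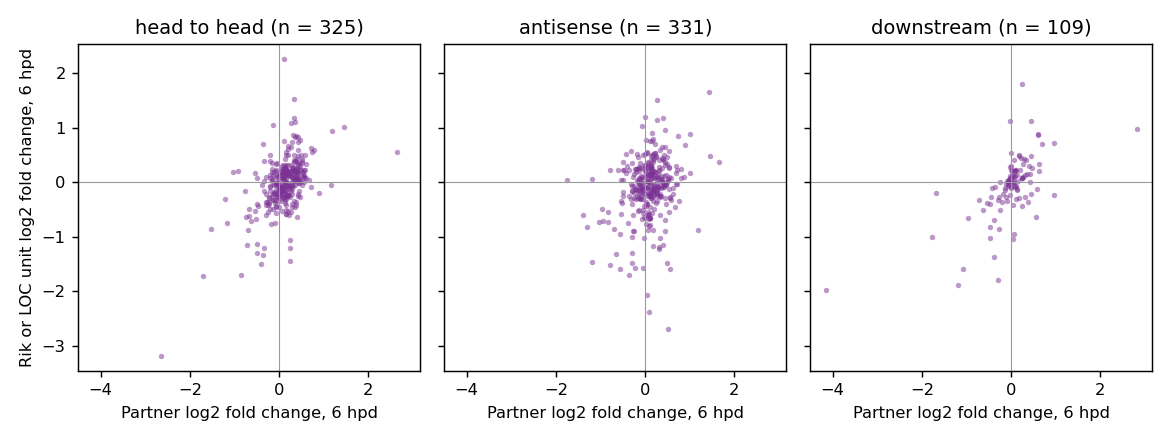
Log2 fold change at 6 hpd against NT of Rik and LOC units (y axis) and of their partner gene (x axis), for units head to head with, antisense to or downstream of the partner. Each point is 1 pair. Pearson's r was 0.55 over 325 head to head pairs, 0.25 over 331 antisense pairs and 0.63 over 109 downstream pairs.

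Zic2, a zinc finger transcription factor, and 2610035F20Rik, which starts 202 bp from it on the other strand, both decreased. 2610035F20Rik had 22 and 29 fragments in the NT libraries, then 24 and 14 after 0.5 h, 8 and 12 after 1 h, 9 and 7 after 2 h and 7 and 10 after 6 h, with -1.57 ± 0.38 (adjusted p = 0.021) at 1 hpd and -1.71 ± 0.39 (adjusted p = 0.0073) at 6 hpd. Gm33719, whose unit covers 2610035F20Rik on the other strand, had -1.59 ± 0.26 (adjusted p = 0.0015) and -1.17 ± 0.25 (adjusted p = 0.0051). Zic2 had -1.70 ± 0.14 (adjusted p = 5.6e-06) and -1.71 ± 0.14 (adjusted p = 1.5e-06). The 1 hpd call of 2610035F20Rik was lost without NT replicate 2 (adjusted p = 0.18) or either 1 hpd library (0.20 and 0.091), and that at 6 hpd in DESeq2 (0.058) and without NT replicate 2 (0.081) or 6 hpd replicate 1 (0.060).

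Slc6a15, a transporter of neutral amino acids, and its partner 6430590A10Rik had both decreased by 6 hpd. 6430590A10Rik had 21 and 22 fragments in the NT libraries, then 24 and 9 after 0.5 h, 8 and 3 after 1 h, 3 and 5 after 2 h and 2 and 3 after 6 h, a log2FC of -2.16 ± 0.48 (adjusted p = 0.013) at 1 hpd and -3.18 ± 0.56 (adjusted p = 0.0012) at 6 hpd. Slc6a15 had -0.66 ± 0.20 (adjusted p = 0.068) at 1 hpd and -2.64 ± 0.23 (adjusted p = 2.9e-06) at 6 hpd, and the difference between the 2 units was not tested. The 1 hpd call of 6430590A10Rik was lost without NT replicate 2 (adjusted p = 0.094) and 1 hpd replicate 2 (0.18).

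2900011O08Rik, which RefSeq lists as the protein-coding Bmerb1, paired with Ifitm7 of the interferon-induced transmembrane family. It stood at 79.8 and 65.4 CPM in the NT libraries, then 64.1 and 52.5 after 0.5 h, 52.4 and 43.9 after 1 h, 51.8 and 34.9 after 2 h and 45.3 and 35.5 after 6 h and changed by -0.85 ± 0.18 (adjusted p = 0.0045) at 6 hpd, where Ifitm7 had -1.53 ± 0.18 (adjusted p = 2.9e-05). Its call had an adjusted p of 0.053 without NT replicate 1 and of 0.074 without 6 hpd replicate 2. D930048N14Rik stood at 7.94 and 5.74 CPM in the NT libraries, then 10.6 and 11.5 after 0.5 h, 8.59 and 8.14 after 1 h, 6.17 and 5.79 after 2 h and 4.57 and 4.43 after 6 h, with a log2FC of -0.61 ± 0.19 (adjusted p = 0.043) at 6 hpd, and its partner N4bp3 had -0.68 ± 0.15 (adjusted p = 0.0056). The call of D930048N14Rik was not made by DESeq2 (adjusted p = 0.14), with RLE factors (0.054) or without the count filter (0.063), and leaving out any 1 library except NT replicate 2 and those of 2 hpd removed it as well (0.051 to 0.28).

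By RefSeq class, 69 of 722 long non-coding units decreased and 43 increased at 6 hpd (9.56% and 5.96%), and of the 322 protein-coding ones 17 and 19 did (5.28% and 5.90%), beside 9.20% and 6.61% of all units. At 0.5 hpd 7 long non-coding units decreased and 3 increased (0.970% and 0.416%, against 0.787% and 0.527% of all units). Of the Rik units 62 decreased and 45 increased at 6 hpd (8.02% and 5.82%), and of the LOC units 37 and 21 (8.55% and 4.85%). By depth, 33 of 387 units with a mean of at least 200 fragments decreased at 6 hpd and 26 increased (8.53% and 6.72%), against 7.91% and 13.1% of all units of that depth. Of 238 units with a mean under 20 fragments 17 decreased and 6 increased (7.14% and 2.52%), against 7.75% and 1.27%.

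For comparison, a list of named long non-coding RNAs had 44 units, of which 41 were tested. At 6 hpd 15 of them decreased and 4 increased (36.6% and 9.76%, against 9.20% and 6.61% of all units), with a median log2FC of -0.17, against medians of -0.01 for the Rik and LOC units and -0.04 for all units. The list holds the Platr transcripts, named for their link to pluripotency, which makes it no neutral sample. Its smallest p-values in the joint test were those of Platr11 and Platr10. Platr11 changed by -2.31 ± 0.18 (adjusted p = 1.9e-05) at 0.5 hpd and -5.42 ± 0.26 (adjusted p = 5.9e-09) at 6 hpd on the log2 scale, and Platr10 by -0.89 ± 0.14 (adjusted p = 0.0052) and -1.87 ± 0.15 (adjusted p = 8.7e-07).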

How the data were processed

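TT_chem_seq of 10 libraries was analysed from the deposited raw fragment counts per transcribed unit. Per the labels and the study's methods, the authors used BWA 0.7.17-r1188 against mm10, SAMtools 1.10 for a quality filter and Picard 2.12.0 against duplicates, and defined units from data pooled over all samples per strand with a hidden Markov model. Replicates were not pooled in the counts. No spike-in was used here, so changes are relative to the other units.

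Counts were tested in edgeR 4.0.16 (R 4.3.3) with TMM factors and the quasi-likelihood F-test, 1 coefficient per group over all 10 libraries. SE is the absolute log2 fold change over the square root of F. CPM is TMM-scaled. DESeq2 1.42.0, other scalings, no filter, the replicate block and each library left out were alternatives.

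Members and gene lists were chosen with earlier results of these data known. Named members were, among calls not overlapping NT, the 6 smallest p-values per direction and time, 4 per direction for 6 against 1 hpd, the 6 highest NT levels per kb, the 6 smallest joint p-values among LOC and among renamed members, and 4 head to head pairs. The LOC rule first covered all 70 called and was narrowed after that number was seen. Promoters were those of the first 6 decreases at 0.5 and 1 hpd with a RefSeq start within 1 kb and off chromosome 18, of which 4 qualified. Head to head was widened to overlapping starts after position counts were seen.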

Additional observations from a re-analysis of the deposited data

Results flagged for a closer look

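Results are listed here because 6 and 1 hpd differed by a test of the difference itself (edgeR quasi-likelihood test, adjusted over all units). There were 24 Rik and LOC units higher at 6 than at 1 hpd (1.99%, against 1.96% of all units) and 31 lower (2.57%, against 2.92%), and as few as 1 (without 1 hpd replicate 1) and 11 (without 6 hpd replicate 2) with a library left out. The log2 fold change of 6 against 1 hpd was -1.58 for 9030404E10Rik, -1.48 for LOC102632231, -1.45 for LOC102633000 and -1.40 for LOC102638466. It was 1.46 for LOC105245978, 1.43 for C130071C03Rik, 0.57 for 2310030G06Rik and 0.50 for E030011O05Rik. Each had both 6 hpd libraries outside the range of the 1 hpd libraries, which was not counted over all called units. No group held 4 samples, so no library was examined as an outlier within its group.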

How the results depend on the processing

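RLE factors and testing without the count filter left every count of calls within 1.5 times the reported one, and so did DESeq2. DESeq2 kept 117 of the 165 calls at 6 hpd in the same direction. Total-count scaling gave 8 increases at 1 hpd and 24 at 2 hpd. Replicate numbers do not pair the samples by the labels: the deviations of same-numbered libraries correlated between groups at 0.054 to 0.663, and 2 of the 10 correlations were not over 0.1. A replicate block gave more calls, with 26, 92, 115 and 152 decreases and 15, 47, 85 and 114 increases at the 4 time points in order, 258 in the joint test, and 66 higher and 60 lower at 6 than at 1 hpd.

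With each library left out in turn, increases numbered 1 to 5, 2 to 23, 13 to 59 and 33 to 92 at the 4 time points in order. Decreases numbered 2 to 13, 20 to 55, 33 to 65 and 57 to 106. The joint test gave 80 to 165, and 6 against 1 hpd gave 1 to 27 higher and 11 to 33 lower. The fewest decreases came without NT replicate 2 at 0.5 hpd (2) and 6 hpd (57, as without 6 hpd replicate 2), without 1 hpd replicate 1 at 1 hpd (20) and without 2 hpd replicate 1 at 2 hpd (33), and leaving out 2 hpd replicate 2 gave the most increases at 1, 2 and 6 hpd.

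Of 83 values of named units, each under 15 alternatives (except 2 for which DESeq2 gave no adjusted p), 1144 comparisons kept direction and side of the threshold, 80 lost the call, 17 gained it and 2 turned sign. Those were LOC105245440 at 0.5 hpd without 0.5 hpd replicate 1 (0.011, against -0.63 without the other 0.5 hpd library) and LOC108167803 at 6 hpd without 6 hpd replicate 1 (-0.035, against 0.52 without the other 6 hpd library), neither called. Head to head units numbered 265 within 1 kb and 135 where overlapping starts were not allowed, and both the allowance and this alternative were chosen after position counts were seen. The cause of these differences was not tested. Each group had 2 libraries and 238 units had a mean under 20 fragments, and the smallest change detectable at that depth was not estimated.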

Other observations

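Gm-numbered single-gene units, the other large group of provisional mouse names, numbered 1787 past the filter. Of these 196 decreased and 81 increased at 6 hpd (11.0% and 4.53%, against 9.20% and 6.61% of all units), with a median log2 fold change of -0.04, and their median NT level was 0.255 CPM per kb.

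Among units called in the joint test, the 3 largest fitted increases were those of LOC108167863, C130071C03Rik and 3830417A13Rik. LOC108167863 (Gm46259 in RefSeq), a long non-coding RNA with no other gene unit within 117207 bp, had 4 and 2 fragments in the NT libraries and 31 and 18 after 6 h. 3830417A13Rik, a protein-coding unit on the X chromosome, had 3 and 8 fragments in NT and 23 and 25 after 6 h. Both passed the count filter through depleted libraries alone, since neither had more than 10 fragments in an NT library, so no fold or p is given. They were picked by that size after the values were seen.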
